A study of Neogale vison with 6 samples.

Results

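The genes described here encode the nuclear pore, the receptors that carry cargo through it, and the lamina and inner envelope of the nucleus. Their symbols in the deposited count table, and no measured values, decided which genes were taken, but the set itself was proposed with earlier results of these data known. The rule took nucleoporins (NUP and a number), importins and transportins (KPNA, KPNB, IPO, TNPO), exportins (XPO), and a short list of further genes (LMNA, LMNB1, LMNB2, RAN, RANBP1, RANBP2, RCC1, TPR, EMD, TMPO, SUN1, SUN2, BANF1, NDC1, POM121 and AAAS). It found 56 of the 24526 genes of the table. RAN, RANBP1 and POM121 matched no row by symbol and were not analysed under those symbols. Mv1Lu, a mink lung epithelial line, was sequenced without treatment (control, 3 libraries) and after cholesterol depletion (CD, 3 libraries). CD combined 50 μM lovastatin, an inhibitor of HMG-CoA reductase, with 50 μM mevalonate for 16 h in medium holding 10% lipoprotein-deficient serum, so that the comparison covers the drug, the precursor and the change of serum together. All libraries come from the same cell line, and no source used here says whether the replicates were separate cultures, so the tests measure the spread between these libraries, which may be technical.

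Nuclear pores are rings of nucleoporins set into the nuclear envelope. Scaffold rings (the Y complex and the inner ring) hold a central channel of nucleoporins with phenylalanine-glycine repeats, and fibrils face the cytoplasm and the nucleus. Importins and exportins, the karyopherins, pass through the channel with their cargo, and the GTPase Ran sets the direction, because its exchange factor RCC1 sits on chromatin and its activating protein RANGAP1 sits in the cytoplasm and at the pore. Below the inner membrane lies the lamina, a mesh of A-type lamins (LMNA) and B-type lamins (LMNB1 and LMNB2), which binds chromatin and inner membrane proteins. In dividing animal cells the envelope is dismantled and rebuilt at each mitosis, and its parts are made as the nucleus grows.

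Reads counted on genes numbered between 13473820 and 18633764 per library, and reads not assigned to 1 gene made up between 29.3% and 47.2% of each library. Levels are given in CPM, that is, read counts scaled to the same library total after TMM normalization, and CD was compared with control by the quasi-likelihood test of edgeR over 12148 genes, with SE for the standard error and a call at a Benjamini-Hochberg FDR under 0.05 over all of them. The CD libraries were less alike than the control libraries, with correlations of log2 CPM across genes between 0.969 and 0.989 among CD and between 0.992 and 0.993 among control libraries. The median coefficient of variation of the members was 19.2% among the CD and 6.95% among the control libraries, beside 17.0% and 8.80% over all tested genes. CD replicate 3 held the lowest of the 3 CD levels for 36 of the 55 members tested (41.0% of all tested genes had their lowest CD level there). As to the cell type, 5 of 7 epithelial markers were found, of which EPCAM and CDH1 were near 0 in control cells (0.162 and 0.181 CPM), OCLN and CLDN4 were low (6.73 and 0.603 CPM) and KRT19 was at 936 CPM. In CD, KRT19 fell to 458 CPM and CLDN4 rose to 7.03 CPM (log2 fold changes -1.03 and 3.55, FDR 2.74e-04 and 9.61e-06, edgeR), while OCLN was not called. Of the 5 mesenchymal markers, PDGFRB, COL1A1 and COL1A2 were lower (log2 fold changes -1.08, -0.93 and -0.37), CDH2 was higher (0.74) and VIM was not called, with means of 4070 (control) and 4152 CPM (CD). The summed mesenchymal level lay between 4285 and 4554 CPM in the control and between 4105 and 5120 CPM in the CD libraries, and the summed epithelial level between 892 and 1019 CPM and between 393 and 546 CPM. Of the 5 alveolar markers found of 6, the surfactant genes SFTPB and SFTPC had 0 counts in all libraries, ABCA3 was higher in CD (log2 fold change 0.70, FDR 0.00802, edgeR), AGER was not called (-0.28), and NKX2-1 was near 0, at means of 0.517 CPM in control and 0.198 CPM in CD. The 3 endothelial markers summed to between 0.0551 and 0.0723 CPM in the control and between 0.246 and 0.307 CPM in the CD libraries. Of the leukocyte markers found, PTPRC had 0 counts in control cells and CD68, a lysosomal gene of macrophages, was higher in CD (log2 fold change 1.85, mean 5.45 CPM in control and 19.7 CPM in CD). The part of these markers in the results was not tested.

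Most of these genes were lower in CD. Of 55 tested members, 32 were lower and 3 higher in CD at an FDR under 0.05 in edgeR, and 20 were not called. Among all tested genes, 22.9% were called lower and 24.8% higher. The median log2 fold change of the members was -0.66, beside 0.06 over all tested genes. Of the 32 lower members, 14 changed at least 2-fold, whereas no higher member did. Among all 12148 tested genes, 1171 were called at least 2-fold lower and 1283 at least 2-fold higher. Every CD library lay below every control library for 34 members (28.6% of all tested genes) and above for 4 (29.5% of all tested genes). Summed over all members, the level lay between 7784 and 8233 CPM in the control and between 6012 and 6461 CPM in the CD libraries. Without LMNA, which drew the most reads of the members and was not called, the sum lay between 5295 and 5463 CPM in the control and between 2961 and 3816 CPM in the CD libraries. As these are bulk libraries scaled to a common total, fewer cells that express a gene and less of its RNA per cell cannot be told apart. The remaining member, KPNA7, had 1 count in each of 2 libraries and did not pass the minimum count.

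**Figure D1:**
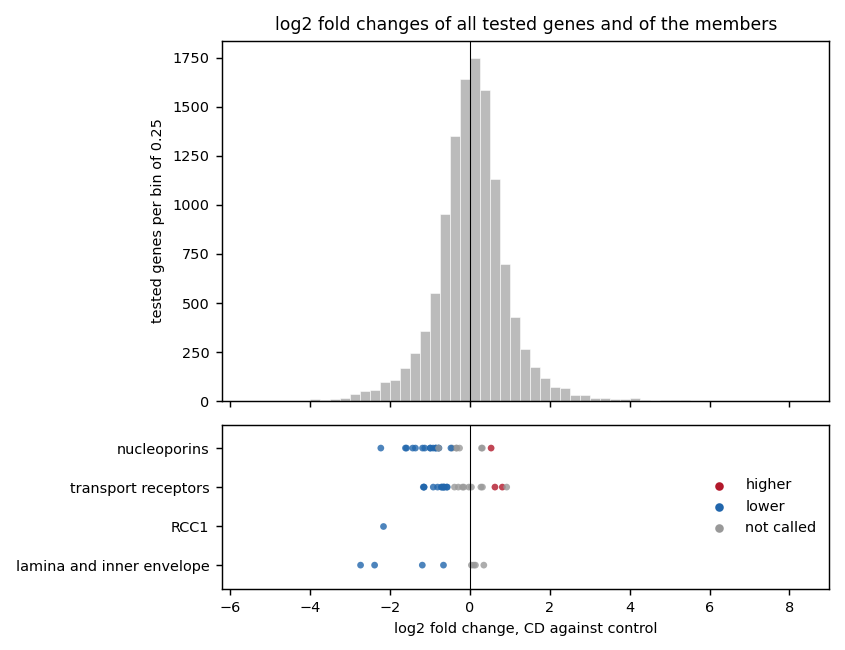
Log2 fold changes of CD against control (horizontal axis) for all 12148 tested genes, as the number of genes per bin (upper panel), and for the 55 tested members by class, each point 1 gene colored by its call at an FDR under 0.05 (lower panel). The members center at -0.66 and reach from -2.73 to 0.92.

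The lowest log2 fold changes were found in the lamina and inner envelope, but not for all of its members. Of 8 members, LMNB1, TMPO, LMNB2 and SUN2 were lower, and LMNA, EMD, BANF1 and SUN1 were not called. LMNB1 (ENSNVIG00000023888), which encodes lamin B1, had 231, 239 and 221 CPM in control replicates 1, 2 and 3 and 35.0, 37.1 and 31.7 CPM in CD replicates 1, 2 and 3. Thus, the lowest control library held several times the level of the highest CD library, and the replicates of each group were close together. The log2 fold change was -2.73 (SE 0.12, FDR 2.46e-07, edgeR), a level 6.65-fold lower in CD. LMNB2 (ENSNVIG00000005371), which encodes lamin B2, had 68.0, 64.5 and 63.5 CPM in control and 26.5, 29.4 and 30.1 CPM in CD, again without overlap. Its log2 fold change was -1.19 (SE 0.12, FDR 3.32e-05, edgeR).

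LMNA (ENSNVIG00000020473), which encodes lamins A and C, had 2704, 2489 and 2769 CPM in the control libraries and 2505, 2966 and 3051 CPM in the CD libraries, and the groups overlapped. The log2 fold change was 0.10 with a 95% interval from -0.20 to 0.39 (FDR 0.57, edgeR), so that a fall of the size seen for the B-type lamins lay outside the interval. The ratio of LMNB1 to LMNA was 0.140 times its control value in CD. On the log2 scale the ratio lay between -3.06 and -2.64 in the CD libraries and between -0.12 and 0.15 in the control libraries, each relative to the control mean. The pairs of members set in a ratio (8 in all) were chosen after their values were seen, so the ratios are a description with no test. The ratio of LMNB2 to LMNA was 0.410 and that of LMNB1 to LMNB2 0.342 times the control value.

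TMPO (ENSNVIG00000008369) encodes thymopoietin, a lamina-associated polypeptide that binds lamins and chromatin. It was at 68.4, 72.0 and 64.5 CPM in control and at 14.8, 14.5 and 9.87 CPM in CD cells. The log2 fold change was -2.38 (SE 0.17, FDR 3.76e-06, edgeR), a level 5.22-fold lower. EMD, which encodes emerin of the inner membrane, had 118, 115 and 115 CPM in control and 114, 128 and 141 CPM in CD cells (log2 fold change 0.14, 95% interval -0.11 to 0.40, FDR 0.33, edgeR). BANF1, whose product links DNA to emerin and related proteins, had 173, 169 and 186 CPM in control and 144, 178 and 221 CPM in CD cells (log2 fold change 0.04, 95% interval -0.30 to 0.38, FDR 0.85, edgeR). For EMD and BANF1 the CD libraries spread to either side of the control libraries.

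SUN1 and SUN2 encode the inner membrane proteins that connect the lamina to the cytoskeleton through nesprins. SUN2 was at 202, 183 and 231 CPM in control and at 145, 144 and 101 CPM in CD cells (log2 fold change -0.66, SE 0.16, FDR 0.00645, edgeR). SUN1 was at 239, 251 and 293 CPM in control and at 411, 350 and 236 CPM in CD cells, with CD replicates 1 and 2 above and CD replicate 3 just below all control libraries. SUN1 was not called (log2 fold change 0.35, 95% interval -0.07 to 0.77, FDR 0.15, edgeR), but was called higher without CD replicate 3 (log2 fold change 0.51, FDR 8.43e-05, edgeR). The ratio of SUN2 to SUN1 in CD was 0.503 times its control value, with log2 values between -1.16 and -0.88 in the CD libraries and between -0.11 and 0.10 in the control libraries.

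**Figure D2:**
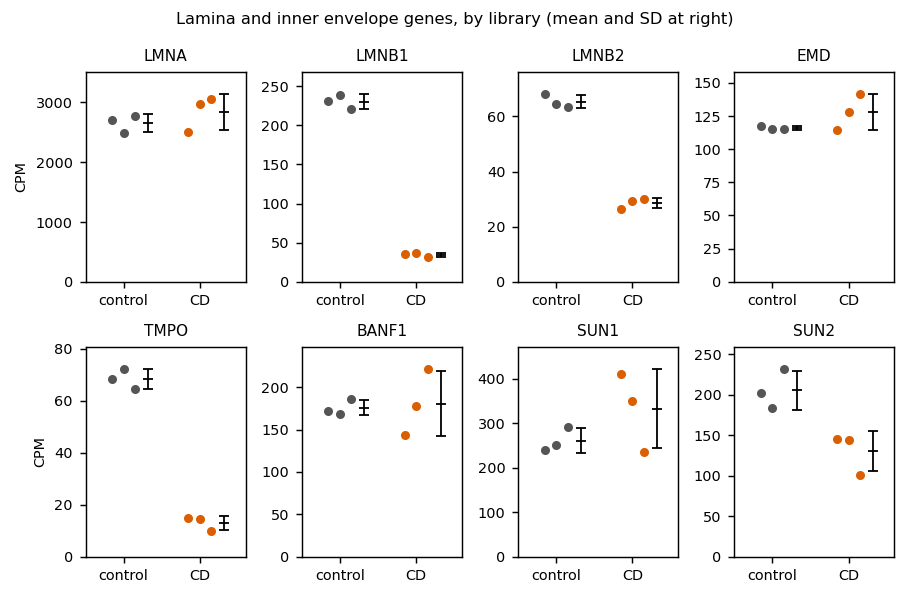
Level in CPM (vertical axes, each from 0) of the 8 lamina and inner envelope genes in the 3 control and 3 CD libraries, with points for libraries in the order of replicates 1 to 3 and the mean ± SD beside them. LMNB1, TMPO, LMNB2 and SUN2 lie lower in every CD library than in any control library, whereas LMNA, EMD, BANF1 and SUN1 overlap.

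Of the 23 nucleoporin genes, 15 were lower, 1 was higher and 7 were not called, with a median log2 fold change of -0.85. Of the scaffold genes matched by the rule, all 5 inner ring members and 4 of 5 Y complex members were called lower. NUP205 (ENSNVIG00000022522), a large inner ring scaffold protein, had 81.5, 85.9 and 84.1 CPM in control and 31.8, 28.8 and 23.1 CPM in CD cells (log2 fold change -1.59, SE 0.14, FDR 1.45e-05, edgeR). Its relative NUP188, at 217, 204 and 237 CPM in control and 142, 132 and 91.3 CPM in CD cells, was the inner ring member with the smallest change (log2 fold change -0.85, SE 0.16, FDR 0.0019, edgeR). NUP155, which links the ring to the membrane, and NUP93, on which the ring is assembled, had log2 fold changes of -1.43 and -0.86. NUP53, described in the table as nucleoporin 35, a membrane-binding part of the same ring, had one of -0.99.

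The Y complex coats the outer faces of the pore. NUP85 (ENSNVIG00000010508) had 107, 107 and 113 CPM in control and 35.0, 35.5 and 36.7 CPM in CD cells, with little spread within each group. It was 3.05-fold lower (log2 fold change -1.61, SE 0.11, FDR 2.73e-06, edgeR). NUP107, the subunit that gives the complex its other name, had 25.2, 29.1 and 21.7 CPM in control and 10.8, 9.33 and 9.44 CPM in CD cells (log2 fold change -1.36, FDR 1.23e-04, edgeR). NUP160 and NUP43 followed with log2 fold changes of -0.79 and -0.77. NUP43 had 12.9, 12.2 and 11.6 CPM in control and 8.73, 6.99 and 5.69 CPM in CD cells (FDR 0.00872, edgeR). NUP37 was not called (log2 fold change -0.44, FDR 0.10, edgeR). Its control levels were 18.3, 19.2 and 18.9 CPM and its CD levels 10.4, 13.2 and 18.1 CPM, so that the groups did not overlap but CD replicate 3 came near the control libraries. Without CD replicate 3 the log2 fold change of NUP37 was -0.71 (FDR 3.14e-04, edgeR). A further Y complex gene is listed under the symbol F5H5C2, with the description nucleoporin 133. It lies outside the rule and was chosen by its description, and it fell by 0.66 on the log2 scale (SE 0.13, FDR 0.0024, edgeR).

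The membrane ring anchors the pore in the envelope. NDC1 (ENSNVIG00000007324), a transmembrane nucleoporin, fell most among the nucleoporins. Its levels were 70.9, 69.5 and 73.2 CPM in control and 18.3, 13.1 and 14.1 CPM in CD cells, a level 4.68-fold lower (log2 fold change -2.23, SE 0.15, FDR 2.81e-06, edgeR). AAAS, which encodes the nucleoporin aladin that NDC1 anchors at the pore, had 93.3, 93.2 and 98.8 CPM in control and 48.2, 57.7 and 45.0 CPM in CD cells (log2 fold change -0.92, SE 0.13, FDR 2.48e-04, edgeR). NUP210, another transmembrane nucleoporin, was at 3.01, 1.59 and 2.75 CPM in control and at 1.97, 1.41 and 0.864 CPM in CD cells. At this low level its groups overlapped and it was not called (log2 fold change -0.78, FDR 0.0851, edgeR).

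In the central channel, 1 of 3 members was lower and the other two were not called. NUP62, the repeat protein that lines the channel, had 114, 102 and 114 CPM in control and 55.6, 57.0 and 38.3 CPM in CD cells (log2 fold change -1.13, SE 0.16, FDR 2.81e-04, edgeR). Its channel partner NUP54 had 19.3, 19.8 and 18.2 CPM in control and 25.9, 21.2 and 24.1 CPM in CD cells, above the control in every library but not called (log2 fold change 0.31, FDR 0.0986, edgeR). NUP98, whose levels were 130, 109 and 61.3 CPM in CD replicates 1, 2 and 3 and between 125 and 128 CPM in the control, was not called either (FDR 0.23, edgeR).

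On the cytoplasmic side, NUP214 and NUP88, which form a complex, were lower. NUP214 had 136, 117 and 146 CPM in control and 74.8, 65.8 and 35.1 CPM in CD cells (log2 fold change -1.18, SE 0.24, FDR 0.00246, edgeR), and NUP88 had 243, 246 and 275 CPM in control and 119, 135 and 133 CPM in CD cells (log2 fold change -0.98, SE 0.11, FDR 7.27e-05, edgeR). RANBP2, the Ran-binding fibril protein, had 88.1, 50.2 and 44.7 CPM in CD cells, against 54.5, 50.2 and 44.8 CPM in control. CD replicate 1 stood alone above the rest, and the gene was not called (FDR 0.32, edgeR). NUP42, which binds the mRNA export factor GLE1 on this side, was the only nucleoporin called higher. It had 9.67, 12.1 and 10.5 CPM in control and 16.1, 13.3 and 17.4 CPM in CD cells (log2 fold change 0.53, SE 0.18, FDR 0.0304, edgeR). Its call was lost without control replicate 1 or 3 (FDR 0.14 and 0.10, edgeR). In the nuclear basket, NUP50 fell by 0.47 on the log2 scale (FDR 0.00411, edgeR), from 143, 140 and 144 CPM in control to 98.0, 109 and 100.3 CPM in CD cells. NUP153 and TPR, which build the basket, had log2 fold changes of -0.33 and -0.26 and were not called (FDR 0.0828 and 0.22, edgeR).

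**Figure D3:**
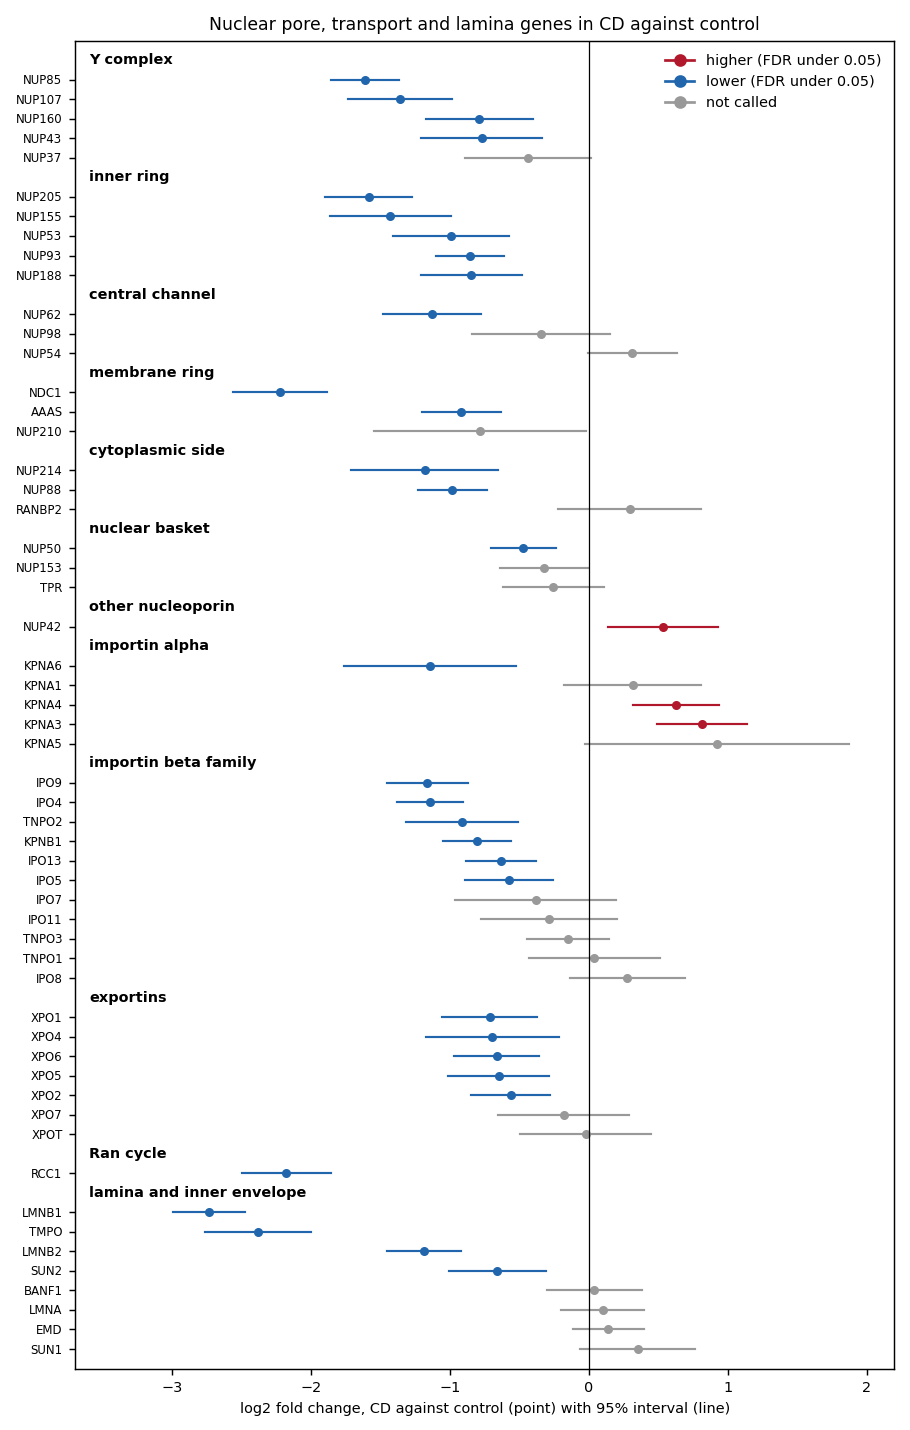
Log2 fold change of CD against control (point, horizontal axis) with its 95% interval (line) for the 55 tested members, grouped by role and colored by the call at an FDR under 0.05 in edgeR. Blue points (32 lower genes) fill the inner ring and most of the Y complex, whereas the red points are NUP42, KPNA4 and KPNA3.

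Of the 23 transport receptor genes tested, 12 were lower, 2 were higher and 9 were not called. Importin alpha proteins are adaptors that recognize the classical nuclear localization signal and bind importin beta (KPNB1), which makes contact with the pore. Of the 5 importin alpha genes tested, 2 were higher, 1 was lower and 2 were not called, with a median log2 fold change of 0.63. KPNA2 matched no row by symbol, so the counts and ratios of importin alpha genes leave it out. Of the 18 beta-karyopherins matched by the rule, that is, importins of the beta family, transportins and exportins, 11 were lower, 0 were higher and 7 were not called, with a median of -0.60. These counts cover only the genes that the rule matched, and RANBP17, a gene of the same family outside the rule, was called higher.

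KPNA3 (ENSNVIG00000011752) had 18.3, 17.7 and 15.6 CPM in control and 32.8, 27.9 and 30.0 CPM in CD cells, with no overlap. It rose 1.76-fold (log2 fold change 0.81, SE 0.14, FDR 0.00116, edgeR). KPNA4 (ENSNVIG00000003031), its close paralog, rose from 40.1, 47.3 and 37.1 CPM to 70.5, 57.4 and 64.5 CPM (log2 fold change 0.63, SE 0.14, FDR 0.00418, edgeR). In contrast, KPNA6 (ENSNVIG00000024252) had 52.7, 47.4 and 56.3 CPM in control and 32.1, 26.0 and 12.5 CPM in CD cells. It was 2.21-fold lower (log2 fold change -1.14, SE 0.28, FDR 0.00679, edgeR), and -0.88 on the log2 scale without CD replicate 3. KPNA1, of the same subfamily as KPNA6, had 22.6, 24.4 and 23.5 CPM in control and 37.8, 30.7 and 19.1 CPM in CD cells. It was not called with all libraries (FDR 0.26, edgeR) and was called higher without CD replicate 3 (log2 fold change 0.51, FDR 0.00133, edgeR). KPNA5, at most 1.54 CPM in any library, was not called with all libraries (log2 fold change 0.92, FDR 0.0992, edgeR) and was called higher without CD replicate 3 (log2 fold change 1.07, FDR 0.0238, edgeR). Reads of these paralogs can be shared where their sequences are alike.

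KPNB1 (ENSNVIG00000005359), the importin beta that carries importin alpha through the pore, was at 226, 241 and 222 CPM in control and at 141, 131 and 121 CPM in CD cells. The log2 fold change was -0.81 (SE 0.11, FDR 2.18e-04, edgeR). The ratio of KPNA3 to KPNB1 was 3.08-fold and that of KPNA4 to KPNB1 2.71-fold higher in CD. The ratio of KPNA3 to KPNA6 was 4.19-fold higher.

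In the importin beta family, IPO9, a carrier of histones and actin, and IPO4, a carrier of histones, fell most. IPO9 had 186, 172 and 178 CPM in control and 83.2, 89.6 and 66.5 CPM in CD cells (log2 fold change -1.16, SE 0.13, FDR 6.96e-05, edgeR), and IPO4 had 245, 237 and 263 CPM in control and 107, 117 and 113 CPM in CD cells (log2 fold change -1.15, SE 0.11, FDR 2.00e-05, edgeR). TNPO2, IPO13 and IPO5 fell by 0.91, 0.63 and 0.58 on the log2 scale. IPO5, a carrier of ribosomal proteins and histones, had 132, 143 and 121 CPM in control and 106, 78.7 and 80.9 CPM in CD cells (FDR 0.00727, edgeR). IPO7, IPO8, IPO11, TNPO1 and TNPO3 were not called, with log2 fold changes between -0.38 and 0.28. Without CD replicate 1, IPO7 was called lower (log2 fold change -0.80, FDR 0.00254, edgeR). TNPO1 and TNPO2 encode close relatives that import RNA-binding proteins. TNPO1 had 44.9, 40.4 and 37.6 CPM in control and 56.9, 39.6 and 29.6 CPM in CD cells, on either side of the control, whereas TNPO2 had 158, 148 and 171 CPM in control and 95.1, 98.7 and 59.4 CPM in CD cells. The ratio of TNPO2 to TNPO1 in CD was 0.522 times its control value.

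The 7 exportin genes had log2 fold changes between -0.71 and -0.02, and 5 were called lower. XPO1 (ENSNVIG00000011993), the main export receptor for proteins with a leucine-rich export signal, had 114, 113 and 103 CPM in control and 82.2, 54.7 and 63.7 CPM in CD cells (log2 fold change -0.71, SE 0.15, FDR 0.00355, edgeR). XPO2, which returns importin alpha to the cytoplasm, had 148, 160 and 136 CPM in control and 114, 97.1 and 89.3 CPM in CD cells (log2 fold change -0.56, SE 0.13, FDR 0.00453, edgeR), the smallest change among the called exportins. XPO5, which exports precursors of microRNAs, and XPO6, which exports actin, had log2 fold changes of -0.65 and -0.67. XPO4 was called with all libraries (log2 fold change -0.70, FDR 0.0222, edgeR) but not without control replicate 1 or 2 or CD replicate 2 (FDR 0.0628, 0.0880 and 0.0689, edgeR). XPO7 and XPOT, the exporter of tRNA, were not called, with CD replicate 1 above and CD replicate 3 below all control libraries in each.

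**Figure D4:**
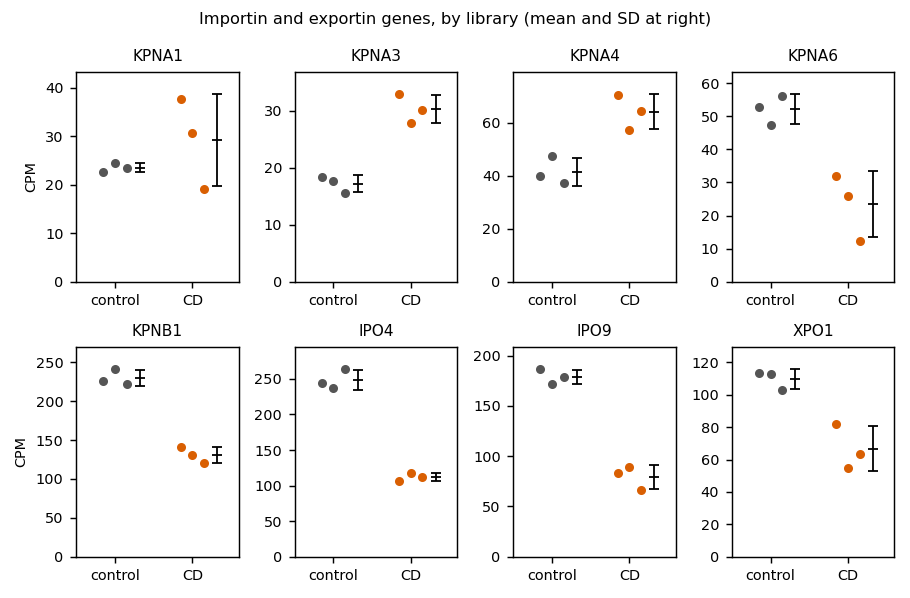
Level in CPM (vertical axes, each from 0) of 8 transport receptor genes in the 3 control and 3 CD libraries, with points for libraries in the order of replicates 1 to 3 and the mean ± SD beside them. KPNA3 and KPNA4 lie higher, and KPNA6, KPNB1, IPO4, IPO9 and XPO1 lower, in every CD library than in any control library, while KPNA1 overlaps.

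The gene of the Ran cycle found by the rule was RCC1 (ENSNVIG00000023830), the exchange factor that loads Ran with GTP. It had 93.0, 108 and 112 CPM in control and 24.6, 25.0 and 19.5 CPM in CD cells, which is 4.53-fold lower (log2 fold change -2.18, SE 0.14, FDR 2.29e-06, edgeR). Outside the rule, the genes of its counterpart RANGAP1 and of a RANGAP1 co-factor were also lower. RANGAP1 had 526, 519 and 576 CPM in control and 186, 212 and 192 CPM in CD cells (log2 fold change -1.46, SE 0.11, FDR 6.49e-06, edgeR). The gene listed as RANG and described as RAN binding protein 1, a co-factor of RANGAP1, was chosen by its description. It had 335, 358 and 309 CPM in control and 95.1, 113 and 162 CPM in CD cells (log2 fold change -1.43, SE 0.18, FDR 1.53e-04, edgeR). NUTF2, which returns Ran to the nucleus, was not called (log2 fold change 0.30, FDR 0.0981, edgeR).

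A list of 41 other pore, envelope and transport genes was written beside the rule, and 32 of them matched a symbol. Of the 31 with enough counts, 11 were lower in CD and 2 higher (FDR under 0.05, edgeR), which is 35.5% and 6.45% beside 22.9% and 24.8% of all tested genes, and 18 were not called, with a median log2 fold change of -0.16. After RANGAP1, the lowest were GLE1 (-1.30), which acts in mRNA export at the cytoplasmic fibrils, and LBR (-1.12), a lamin B receptor that is also a sterol reductase. NXF1, the receptor that exports mRNA, fell by 0.74 on the log2 scale (FDR 3.86e-04, edgeR), and AHCTF1, which seeds pores on chromatin, by 0.63 (FDR 0.0266, edgeR). The higher genes were RANBP17, a relative of the exportins, and SNUPN, an importin adaptor for small nuclear ribonucleoproteins, with log2 fold changes of 0.79 and 0.37 (FDR 0.00827 and 0.0342, edgeR). SEC13 (-0.28) and SEH1L (-0.07), which are Y complex genes of this list, were not called. The inner membrane genes LEMD2 and LEMD3, and ZMPSTE24, the protease that processes prelamin A, had log2 fold changes of 0.03, 0.26 and 0.07 and were not called either. ICMT, the methyltransferase that completes the prenylated end of B-type lamins and other proteins, was lower (log2 fold change -0.96, SE 0.18, FDR 0.00157, edgeR).

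**Figure D5:**
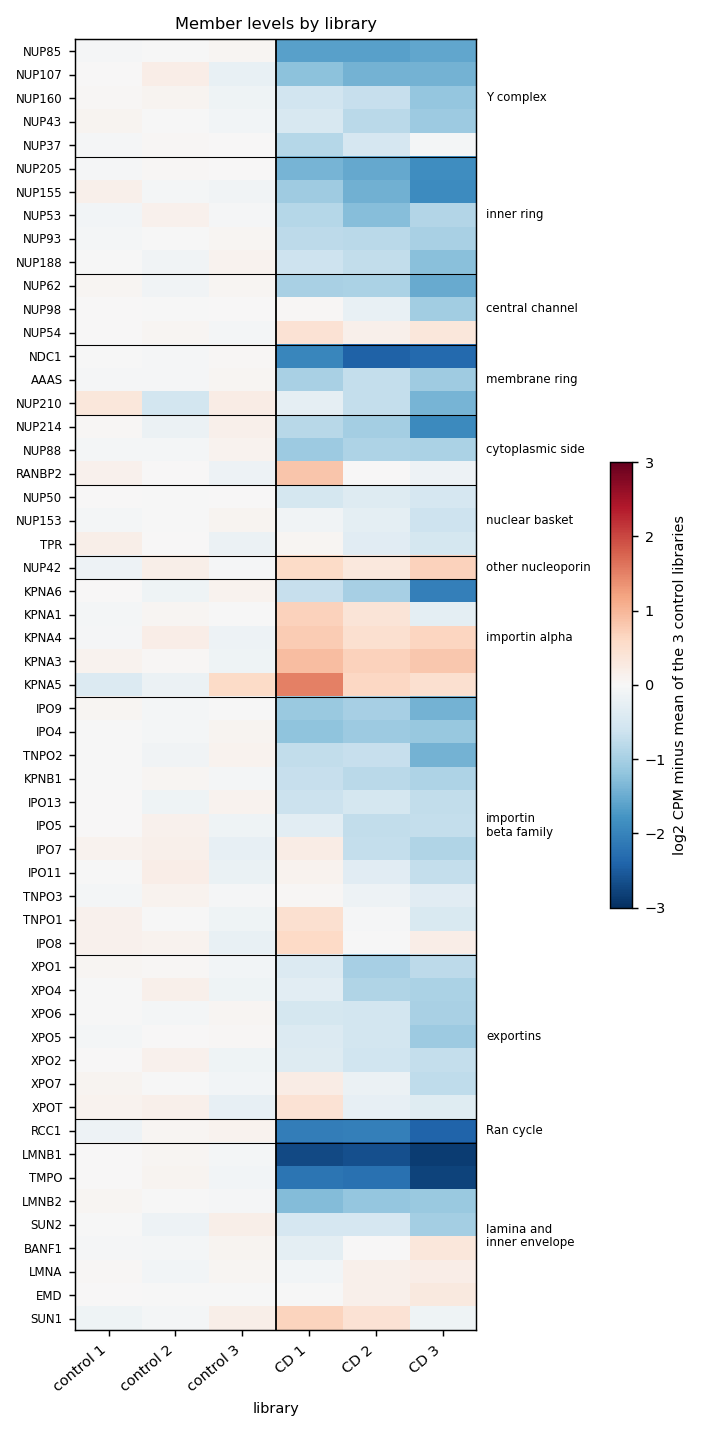
Log2 CPM of the 55 tested members (rows, grouped by role) in each of the 6 libraries (columns), relative to the mean of the 3 control libraries, with blue for lower and red for higher levels. The median of the members is -0.48, -0.69 and -0.92 in CD replicates 1, 2 and 3.

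Several of these genes are known to vary with the cell cycle, so proliferation markers were read beside them. Of 15 markers listed, 13 were found, and all 13 were lower in CD at an FDR under 0.05 in edgeR, with a median log2 fold change of -2.41. None of them was at 0, and their summed level lay between 2618 and 2799 CPM in the control and between 450 and 471 CPM in the CD libraries. The DNA helicase subunit MCM2 fell by 3.93 and the topoisomerase TOP2A by 2.45 on the log2 scale. The part of this change in the result for the members was not tested. The members also differed between the CD libraries. The median of the nucleoporins, relative to the control mean on the log2 scale, was -0.79, -0.73 and -1.08 in CD replicates 1, 2 and 3, and that of the transport receptors was -0.31, -0.55 and -0.73. Without CD replicate 3, more genes were called in general (29.2% of all tested genes lower and 29.3% higher), and 33 members were lower and 6 higher, the latter being those 3 called with all libraries and SUN1, KPNA1 and KPNA5.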

How the data were processed

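According to the methods and the submitters' processing notes, the authors isolated poly(A) mRNA, trimmed reads with fastp 0.20.1, aligned them to the mink assembly NNQGG.v01 with STAR 2.7.2a and used DESeq2 1.30.1. The counting program and its use of strand are not given in the sources used here, so overlapping, antisense and near-identical genes are uncertain. The authors deposited raw counts per gene, used here, and per library a normalized signal equal to the count divided by a size factor. In row order, 100% of its 147156 values gave whole reads (within 0.01) equal to the counts, while the identifiers beside them followed another order, so they were paired by row and used only in alternatives. The edgeR test on these reads called 5800 of 12146 genes. Read totals that belong to no gene, between 29.3% and 47.2% of each library, were left out.

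The counts of the 6 libraries were compared in R 4.3.3 by edgeR 4.0.16 (filterByExpr, minimum count 10 and total 15, TMM, robust glmQLFit, glmQLFTest, condition as the only term, all 6 libraries). The standard error is the size of the log2 fold change divided by the square root of F, and 95% intervals use the degrees of freedom of the test. Alternatives were DESeq2 1.42.0, other scalings and filters, limma 3.58.1 on log2 of the normalized signal with a pseudocount of 1, the replicate number as a block, an FDR of 0.01 and each library left out. The procedure was tested on simulated counts. Members and lists were chosen with earlier results of these data known, and the ratios of members after their values were seen. Levels in every library are given for lamina genes, for genes of the Ran cycle, for the highest and lowest called gene of each role and for further members. Levels were not compared between genes, since gene lengths of this assembly were not used, and no coordinates or sequences are given, because the annotation at hand is of another assembly. Promoter motifs were planned and not analysed here.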

Additional observations from a re-analysis of the deposited data

How the results depend on the processing

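Of the 32 members called lower, 31 kept their call in all 15 alternative settings, XPO4 being the exception, as did KPNA3 and KPNA4 of the 3 called higher. The number of higher members was between 2 and 6 with each library left out in turn, and it was 6 without CD replicate 3, where calls over all genes also rose from 5800 to 7222. The number of lower members was between 31 and 37 over all settings, and the median log2 fold change of the members between -0.78 and -0.58. With an FDR of 0.01, 31 were lower and 2 higher. With the replicate number as a block, 33 members were lower and 2 higher (NUP42 lost and IPO7 gained the call, with FDR 0.0653 and 0.0432, edgeR). The replicate numbers showed no visible pairing of the libraries. The deviations of same-numbered libraries from their group means had correlations across genes of -0.03, -0.31 and -0.18. No library correlated best with its own number. With 3 libraries per group, these correlations cannot show whether same-numbered libraries shared a day or culture. Directions changed only for 4 members that were not called. BANF1 was at -0.0070 with limma on the normalized signal and between -0.16 and 0.19 with a library left out. TNPO1 was at -0.035 with limma, at -0.0079 with the block and between -0.23 and 0.20. XPOT was at 0.0072 with upper-quartile scaling and between -0.30 and 0.085, and RANBP2 lay between -0.059 and 0.43. Without CD replicate 1, IPO7, NUP98, NUP153, NUP210 and TPR were called lower, NUP210 also without control replicate 2. The cause of these changes was not tested. The depth limits KPNA5, KPNA7 and NUP210, which had few reads.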
